A study of Mus musculus with 8 samples.

Results

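The mitochondrial genome encodes 13 proteins, and 10 of their transcripts were described here across the cell clusters of cultured white preadipocytes: mt-Nd1, mt-Nd2, mt-Nd3, mt-Nd4, mt-Nd5, mt-Cytb, mt-Co1, mt-Co2, mt-Co3 and mt-Atp6. The members were chosen by gene symbol, and every entry that the authors' table of cluster markers holds for them was kept, whichever cluster it belonged to. All 10 of 10 members had an entry in at least 1 cluster, and together they took 82 of the 13337 entries of the table, which covers 3903 gene symbols and 12 clusters numbered 0 to 11. Of the 120 combinations of a member with a cluster, the other 38 had no entry.

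The cells came from inguinal white adipose tissue, the fat pad of the groin, of C57BL/6 mice, either wild type (WT) or double knockout (DKO, Hmgn1-/- and Hmgn2-/-), which lack HMGN1 and HMGN2, proteins that bind nucleosomes. The mice were 8 to 12 weeks old per the study's methods, and the 2 genes are missing from every cell of a DKO mouse, so DKO preadipocytes lacked both proteins before culture. Preadipocytes grown on collagen were sampled on day 0 or on day 6 of an induction with insulin, dexamethasone, IBMX, T3 and rosiglitazone for 4 days and then with insulin and T3 alone, which drives them towards brown-like, heat-producing fat cells. WT and DKO cells at each day were captured from 2 cultures, 8 samples in 4 groups, and 3′ ends of polyadenylated RNA were counted in single cells. The table pools the cells of all 8 samples and compares each cluster with all other cells, so samples, genotypes and days have no values of their own in it. No value below has a replicate, no SD could be given, and WT could not be compared with DKO nor day 0 with day 6.

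Mitochondria keep a small circular genome of their own, which is transcribed into long RNAs. These are cut, mostly at the transfer RNAs lying between genes, into messenger RNAs. The proteins made from these are core subunits of the machinery of oxidative phosphorylation, the process that turns nutrients into ATP or, where uncoupling proteins are present, into heat. Complex I takes electrons from NADH, complex III passes them to cytochrome c, complex IV passes them to oxygen, and ATP synthase makes ATP from the proton gradient. All other subunits of these complexes, and all subunits of complex II, come from nuclear genes. Brown and beige fat cells are rich in mitochondria, and mitochondria also multiply as white preadipocytes mature.

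Of the members, 5 encode complex I subunits (mt-Nd1 to mt-Nd5), 1 encodes cytochrome b of complex III (mt-Cytb), 3 encode the catalytic core of complex IV (mt-Co1 to mt-Co3) and 1 encodes subunit a of ATP synthase (mt-Atp6). In the GENCODE M21 annotation of GRCm38 (mm10), the build of the files, all 10 lie on the + strand of the mitochondrial chromosome, with lengths of 348 bases for mt-Nd3 up to 1824 bases for mt-Nd5. Each is annotated as a single exon with no intron. The 3 mitochondrial protein genes that are not members are mt-Nd4l, mt-Atp8 and mt-Nd6, and mt-Nd6 alone lies on the − strand. Neighbouring coding regions overlap by 43 bases for mt-Atp8 and mt-Atp6, by 7 bases for mt-Nd4l and mt-Nd4 and by 1 base for mt-Atp6 and mt-Co3, so reads over these stretches cannot be given to a single gene. A 14-base overlap joins mt-Nd5 to mt-Nd6 on opposite strands.

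The capture reads the 3′ end of a transcript, so the last 60 bases of the annotated coding sequence lie closest to the measured fragments. They are shown for 4 transcripts, ranked by the range of their levels over the clusters that list them. The 2 with the widest range were mt-Nd2 (chrM:3914-4951) and mt-Nd1 (chrM:2751-3707). The 2 with the narrowest were mt-Co2 (chrM:7013-7696) and mt-Co3 (chrM:8607-9390). These ranges do not cover the same clusters, since mt-Nd2 was listed in 11, mt-Nd1 and mt-Co2 in 8 and mt-Co3 in 3. The sequences are from GENCODE M21, on the + strand, 5′ to 3′, and capitals mark the stop codon or, in mt-Co3, the single base past the last whole codon.
mt-Nd2: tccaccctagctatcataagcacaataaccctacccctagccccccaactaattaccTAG
mt-Nd1: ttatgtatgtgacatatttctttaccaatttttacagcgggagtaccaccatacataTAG
mt-Co2: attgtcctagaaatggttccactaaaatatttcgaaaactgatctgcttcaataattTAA
mt-Co3: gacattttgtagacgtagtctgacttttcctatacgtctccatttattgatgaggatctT
The coding sequence of mt-Co3 stops 1 base past its last whole codon, and those of mt-Nd4 and mt-Cytb do the same, so 3 of the 10 members end in a lone T. In mammalian mitochondria the poly(A) tail completes such a stop codon. The other 7 end in a complete TAA or TAG.

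Nuclear chromosomes carry old copies of mitochondrial DNA, and reads from such stretches cannot be placed with certainty. Exact matches of 60 bases to annotated nuclear transcripts were found for 8 of the 10 members. They covered 100% of mt-Co2, 99.9% of mt-Co3, 99.6% of mt-Atp6, 98.3% of mt-Nd3, 71.5% of mt-Co1 and 63.6% of mt-Nd4. The share was 20.4% for mt-Nd5, 12.4% for mt-Nd2 and 0 for mt-Nd1 and mt-Cytb. The last 60 bases themselves had an exact match only for mt-Co1 and mt-Co2. None of the nuclear genes with a match has an entry in the table under its own symbol. Whether the authors' reference counted those genes was not checked. The values of the members with long matches should be read as uncertain to the extent of those matches.

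The measure used throughout is the log2 fold change of a cluster against all other cells, as deposited. The authors listed a gene only where this was at least 0.25 in absolute size, and a gene that missed this minimum, the detection minimum or the p-value limit has no entry, which is not a value of 0. The authors also removed cells in which mitochondrial genes made up more than 10% of expression and regressed mitochondrial reads out before clustering. The range of the members' levels was thus narrowed at the upper end before any value below was computed, and how far this moved them was not tested.

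Within a cluster, all listed members went in a single direction. Members were higher in clusters 2, 4, 6, 8 and 11, lower in clusters 0, 1, 3, 5, 9 and 10, and without an entry in cluster 7. The fullest pattern was in cluster 8, where all 10 members were higher, by 0.48 to 1.07 on the log2 scale with a median of 0.78. The largest values were in cluster 11, where 9 members were higher by a median of 1.07 and mt-Nd2 reached 1.64. Among all entries of the table, 32.8% were higher in cluster 8 and 40.2% in cluster 11, with medians over all entries of −0.37 and −0.30. The members share a genome, a long precursor RNA and, in each cluster, the same cells, so their common direction is not 10 independent observations.

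**Figure D1:**
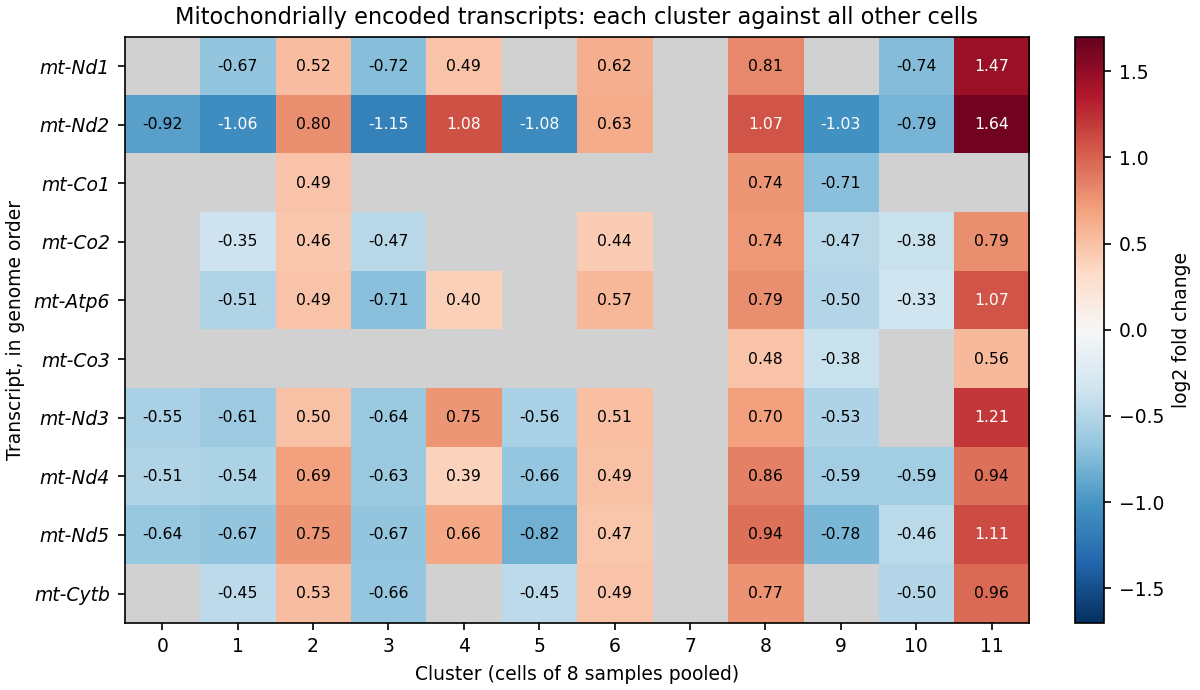
Heat map of the log2 fold change of each of the 10 transcripts (vertical axis, in genome order) in each of the 12 clusters (horizontal axis) against all other cells, with the cells of 8 samples pooled and the value printed in each cell. Red is higher, blue is lower and grey is no entry, and each column holds a single colour from the 0.33 lower of mt-Atp6 in cluster 10 to the 1.64 higher of mt-Nd2 in cluster 11.

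In the other 3 clusters with higher members, the values were smaller. Cluster 2 had 9 members higher, by a median of 0.52, where 31.3% of all its entries were higher. Cluster 6 had 8 members higher, by a median of 0.50, where 49.9% of all entries were. Cluster 4 had 6 members higher, by a median of 0.57, where 26.3% of all entries were. In clusters 2 and 4 the median over all entries was negative, at −0.37 and −0.34, so the members stood on the other side of 0 from the middle of those lists. In cluster 6 it was −0.25.

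The lower members were spread over more clusters and reached smaller sizes. Cluster 3 had 8 members lower, with a median of −0.67 and a lowest value of −1.15, where 42.2% of all entries were lower. Clusters 1 and 9 had 8 members lower each, with medians of −0.58 and −0.56, against 38.3% and 22.2% of all entries. In cluster 10 all 7 listed members were lower, with a median of −0.50, but 66.4% of all its entries were lower too. Cluster 5 had 5 lower with a median of −0.66 against 27.1%, and cluster 0 had 4 lower with a median of −0.59 against 30%. In 5 of these 6 clusters, all but cluster 10, the median over all entries was positive, from 0.29 to 0.32. The authors' adjusted p-values, which treat single cells as replicates, were below 0.05 for 0 of 4, 3 of 8, 4 of 8, 2 of 5, 1 of 8 and 6 of 7 listed members in clusters 0, 1, 3, 5, 9 and 10. The same held for 36.2%, 29.6%, 21.3%, 48.8%, 34.9% and 95.8% of all entries of those clusters. In clusters 2, 4, 6, 8 and 11 it was 3 of 9, 3 of 6, 8 of 8, 10 of 10 and 9 of 9 members, beside 31.8%, 93.9%, 58.3%, 37.4% and 68.8% of all entries. In clusters 0, 4, 5, 9 and 10 the members' share was thus below that of all entries.

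mt-Nd2, a membrane subunit of complex I, had the largest absolute log2 fold change of all listed members in every one of the 11 clusters with entries. Its values were −0.92, −1.06, −1.15, −1.08, −1.03 and −0.79 in clusters 0, 1, 3, 5, 9 and 10. They were 0.80, 1.09, 0.63, 1.07 and 1.64 in clusters 2, 4, 6, 8 and 11. The 6 lower values thus ran from −1.15 to −0.79 and the 5 higher values over a wider span, from 0.63 to 1.64.

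These fold changes compare a cluster with a different remainder each time. They were put on a common scale by solving the share of each cluster among all cells from the detection fractions, and dividing the mean level in a cluster by the mean over all cells. On this scale, where 1 is the average cell, mt-Nd2 stood at 3.03, 1.97, 1.92, 1.59 and 1.48 in clusters 11, 8, 4, 2 and 6. It stood at 0.587, 0.566, 0.518, 0.505, 0.495 and 0.479 in clusters 10, 0, 1, 9, 5 and 3. No listed cluster can lie close to 1, since an entry needs a minimum fold change. Neighbours such as clusters 4 and 8, or 9 and 5, differed by under 0.1, and with no replicates their order cannot be tested. From the lowest to the highest cluster, the level of mt-Nd2 differed 6.32-fold.

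**Figure D2:**
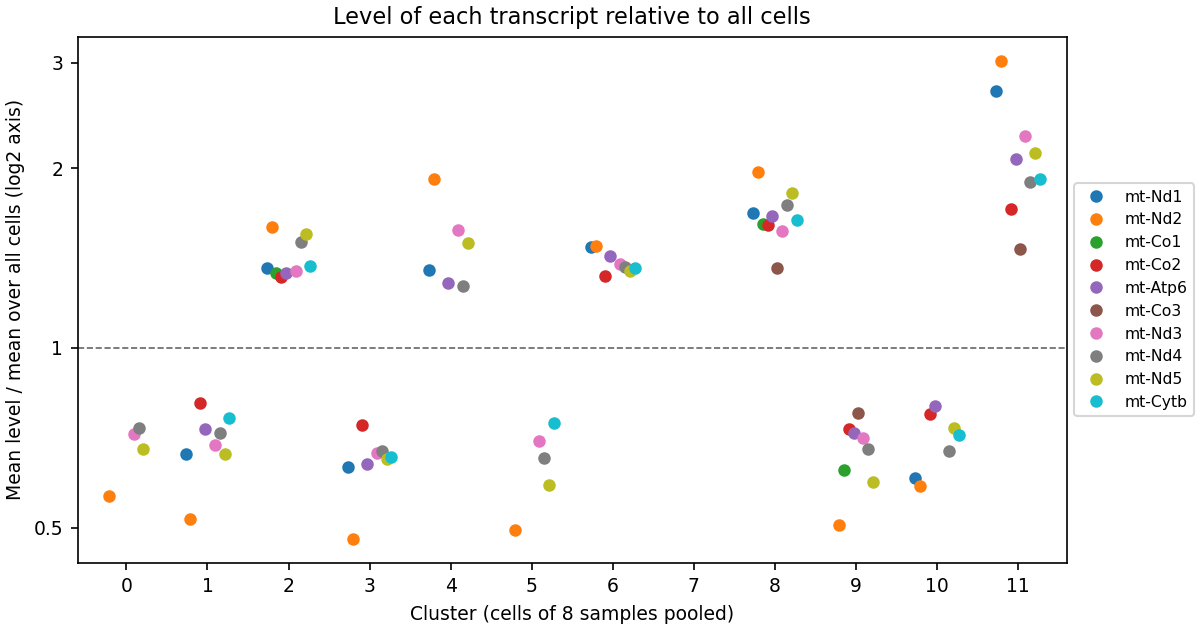
Mean level of each transcript in a cluster divided by its mean over all cells (vertical axis, log2 scale) for the clusters with an entry (horizontal axis), with 1 point per transcript and no error bars because the cells of 8 samples were pooled. mt-Nd2 (orange) is the point farthest from the dashed line at 1 in each cluster, from 0.479 in cluster 3 to 3.03 in cluster 11.

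mt-Nd1, the membrane subunit next to the quinone-binding site, had the next widest range at 4.46-fold, from 0.605 in cluster 10 to 2.70 in cluster 11. On the log2 scale it was higher by 1.47, 0.81, 0.62, 0.52 and 0.49 in clusters 11, 8, 6, 2 and 4. It was −0.67, −0.72 and −0.74 in clusters 1, 3 and 10, and it had no entry in clusters 0, 5 and 9. In cluster 10, mt-Nd1 and mt-Nd2 lay close together, at −0.74 and −0.79, whereas in cluster 3 they stood at −0.72 and −1.15.

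mt-Nd5 and mt-Nd4, proton-pumping subunits of complex I, were listed in the same 11 clusters as mt-Nd2. The level of mt-Nd5 ran from 0.590 in cluster 5 to 2.12 in cluster 11, a 3.59-fold range, and it came next after mt-Nd2 in absolute size in clusters 0, 1, 2, 5, 8 and 9, where its log2 values were −0.64, −0.67, 0.75, −0.82, 0.94 and −0.78. mt-Nd4 ran from 0.653 in cluster 5 to 1.89 in cluster 11, a 2.90-fold range, and it was the smallest of the listed members in clusters 0 and 4, at −0.51 and 0.39. mt-Nd3, the shortest member, ran over 3.39-fold, from 0.668 in cluster 3 to 2.26 in cluster 11, with a log2 fold change of 1.21 there. Over the 5 complex I members, the median log2 fold change was 1.21, 0.86, 0.69, 0.66 and 0.51 in clusters 11, 8, 2, 4 and 6. All 5 were listed in each of these clusters, and all 5 were also listed in clusters 1 and 3, with medians of −0.67 in both.

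mt-Cytb was listed in 8 clusters, and its log2 fold change was 0.96, 0.77, 0.53 and 0.49 in clusters 11, 8, 2 and 6. It was −0.45, −0.66, −0.45 and −0.50 in clusters 1, 3, 5 and 10. Its level varied 2.92-fold between clusters 3 and 11, about as much as that of mt-Nd4.

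Of the complex IV transcripts, mt-Co1 and mt-Co3 had 3 entries each, the fewest of all members, and mt-Co2 had 8. mt-Co1 was listed only in clusters 2, 8 and 9, at 0.49, 0.74 and −0.71, and its level averaged 0.927 over the remaining clusters, which held 76.2% of all cells. mt-Co3 was listed only in clusters 8, 9 and 11, at 0.48, −0.38 and 0.56, and its level averaged 0.982 over the other 86.8% of cells. mt-Co1 had no entry in cluster 11, where every other member was higher. mt-Co2 ran from −0.47 in cluster 9 to 0.79 in cluster 11, and it was the smallest of the listed members in 4 of them. The highest level of a transcript was 2.33 times its lowest listed level for mt-Co2, 2.57 times for mt-Co1 and 1.88 times for mt-Co3. Cluster 9 was the lowest listed cluster for all 3 complex IV members and for none of the other 7. For mt-Co1 and mt-Co3 it was the only cluster that lists them as lower, so no other could be lowest. For mt-Co2 it was nearly level with cluster 3, at −0.474 against −0.468.

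mt-Atp6 was listed in 9 clusters and followed the complex I members in direction, with log2 values of 1.07, 0.79, 0.57, 0.49 and 0.40 in clusters 11, 8, 6, 2 and 4. The lower values were −0.71, −0.51, −0.50 and −0.33 in clusters 3, 1, 9 and 10. Its range of levels was 3.24-fold, and its value of −0.33 in cluster 10 was the smallest of all 82 entries of the members. Over the clusters that list them, the members with the longest nuclear matches did not share a range. The levels of mt-Atp6 and mt-Nd3 varied 3.24-fold and 3.39-fold, and those of mt-Co2 and mt-Co3 varied 2.33-fold and 1.88-fold. These 4 were listed in 9, 10, 8 and 3 clusters, so their ranges do not cover the same clusters.

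Cluster 7 has no entry for any member. For the 3 members listed in all 11 other clusters, its level can be estimated from the rest, because the share-weighted levels must average to 1. The level solved in this way was 1.01 for mt-Nd4, 0.884 for mt-Nd5 and 0.809 for mt-Nd2. The estimate for mt-Nd4 was thus close to the average of all cells. That for mt-Nd2 was below it but above its level in each of the 6 clusters that list it as lower. Small errors in the sum, which was 0.9968 to 0.9996 for the 10 genes listed in every cluster, weigh more in a cluster with 6.6% of cells. mt-Co2 had an entry in cluster 1 at a level of 0.81, and why mt-Nd2 had none in cluster 7 was not tested.

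The 3 mitochondrial protein genes outside the members had the same direction as the members in every cluster that lists them. mt-Nd6, the only protein gene read from the other strand, was listed in the same 11 clusters as mt-Nd2. It was higher by 1.17, 0.89, 0.80, 0.66 and 0.66 in clusters 4, 11, 8, 6 and 2. It was −0.89 in cluster 1, −0.83 in cluster 3 and −0.29 in cluster 10. Unlike every member, mt-Nd6 had its highest value in cluster 4 and not in clusters 8 or 11. mt-Atp8 also peaked in cluster 4, at 1.11 against 1.01 in cluster 11. mt-Nd4l had 0.85 in cluster 4 and 1.28 in cluster 11. The coding regions of mt-Atp8 and mt-Nd4l overlap those of mt-Atp6 and mt-Nd4. Differences within these pairs cannot be read as differences between separate transcripts. The ribosomal RNAs mt-Rnr1 and mt-Rnr2 have no entry in the table, and whether the authors' reference counted them was not checked.

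Detection, the percent of cells in which a transcript was seen at all, was near its ceiling for most members. Over all cells it was 99.2% for mt-Atp6 and mt-Co3, 98.2% for mt-Nd2, 97.6% for mt-Nd4, 90.2% for mt-Nd5 and 83.9% for mt-Nd3. In 8 of the 11 clusters every listed member was detected in at least as many cells inside the cluster as outside, also where its level was lower. In cluster 1, for example, mt-Nd2 was detected in 99.6% of cells against 98% elsewhere, with a log2 fold change of −1.06. Detection therefore gave no lower call in clusters 0, 1, 5 and 9, and the lower values there were differences in amount among cells of which at least 84% held the transcript.

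Cluster 10 was the reverse. All 7 listed members were detected in fewer of its cells, with a median of 54.9% against 99.6% in other cells. mt-Nd5 was detected in 27.1% of its cells against 92.2%, mt-Nd4 in 50.6% against 99.1%, mt-Nd2 in 54.9% against 99.7%, mt-Nd1 in 54.5% against 99.6% and mt-Atp6 in 76.9% against 99.9%. For each of these 5 it was the lowest detection in any cluster that lists the transcript. Low detection was not limited to mitochondrial transcripts: over all 718 entries of cluster 10 the median was 8.1% against 62.35% elsewhere. Because each cell was scaled to the same total, the fold changes of cluster 10 are relative to a total built from few detected genes, and the part of this in the members' lower values was not tested.

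Cluster 4 joined higher levels to lower detection. mt-Nd3 had a log2 fold change of 0.75 there but was seen in 52.3% of cells, against 87.2% elsewhere. mt-Nd5 was higher by 0.66 and detected in 64.5% against 92.9%, and mt-Nd4 was higher by 0.39 and detected in 92.6% against 98.1%. mt-Nd1 was detected in 96.7% against 98.3%. For mt-Nd2 and mt-Atp6 detection was slightly above that of other cells, at 98.8% against 98.2% and at 99.7% against 99.1%. Over all 2072 entries of cluster 4 the median detection was 10.8% against 63%, so fewer transcripts were seen per cell there as well, and the part of depth in the members' higher values was not tested.

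**Figure D3:**
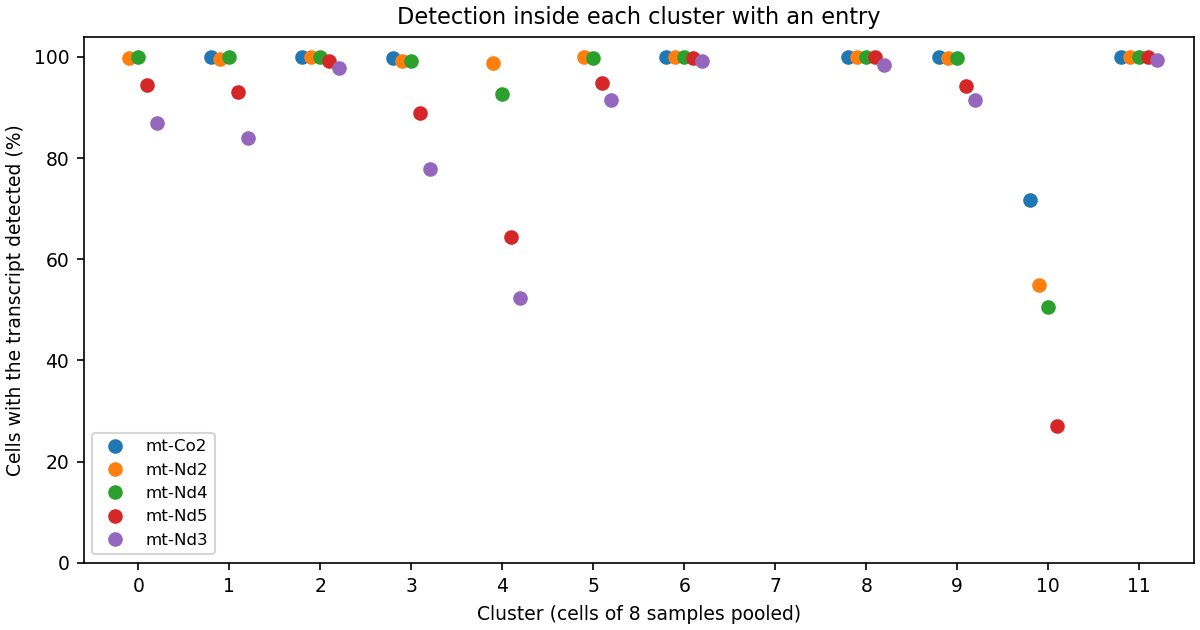
Percent of cells with the transcript detected (vertical axis) inside each cluster that lists it (horizontal axis) for mt-Co2, mt-Nd2, mt-Nd4, mt-Nd5 and mt-Nd3, 1 point per transcript, cells of 8 samples pooled. Points sit near 100% except in cluster 10, where mt-Nd5 falls to 27.1%, in cluster 4, where mt-Nd3 falls to 52.3%, and for mt-Nd3 and mt-Nd5 in the clusters that list them as lower.

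Nuclear-encoded genes of the respiratory chain and ATP synthase went the other way from the members in 3 of the 5 clusters with higher members. The list, chosen by symbol, held 80 nuclear genes with an entry in the table, among them 4 of complex II, which has no mitochondrial subunit, and Ndufa4l2, a relative of Ndufa4 rather than an established complex I subunit. In cluster 2, where 9 members were higher, 2 of the 49 nuclear genes listed were higher and 47 were lower, with a median log2 fold change of −0.45. In cluster 6 it was 1 higher and 21 lower, with a median of −0.32, and in cluster 8 it was 2 higher and 15 lower, with a median of −0.33. Without complex II and Ndufa4l2 the counts were 1 higher and 46 lower, 0 higher and 20 lower, and 1 higher and 15 lower in clusters 2, 6 and 8. In clusters 2 and 8 this was the direction of most entries of the table, whose medians were −0.37 in both. A nuclear gene without an entry may have changed by less than the minimum, so these counts do not cover the rest of the 80.

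In clusters 4 and 11, genes from both genomes were higher. In cluster 11 the nuclear list had 75 higher genes and 1 lower, and its median was 0.83 beside 1.07 for the members. In cluster 4 it had 67 higher genes and 2 lower, and its median was 0.62 beside 0.57. Among all entries, 40.2% were higher in cluster 11 and 26.3% in cluster 4. In cluster 4 Ndufa6 was higher by 0.92 but detected in 37.7% of cells against 75.8% elsewhere. Uqcr11 was higher by 1.09 and detected in 53.9% against 86.8%. Cox7a1 went the other way, at 19.5% against 14.2%. In cluster 11, Ndufb10 was detected in 99.6% against 83.1%. The part of depth in the nuclear values of cluster 4 was not tested. For complex I the nuclear median in cluster 11 was 0.73 over 36 genes, led by Ndufb10 at 1.55, and the 5 mitochondrial members stood at 1.21. For complex IV it was 0.91 over 12 nuclear genes, above mt-Co2 at 0.79 and mt-Co3 at 0.56. The larger medians were thus on the mitochondrial side for complex I and on the nuclear side for complex IV. Single genes overlapped in both complexes. Ndufb10 was above mt-Nd1, at 1.47, though below mt-Nd2, and nuclear Cox7a2l, at 0.50, was below mt-Co2 and mt-Co3. The remaining mitochondrial member of complex IV, mt-Co1, had no entry. Complex III nuclear genes had a median of 1.03 over 9 genes beside 0.96 for mt-Cytb, and ATP synthase nuclear genes a median of 0.80 over 15 genes beside 1.07 for mt-Atp6.

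**Figure D4:**
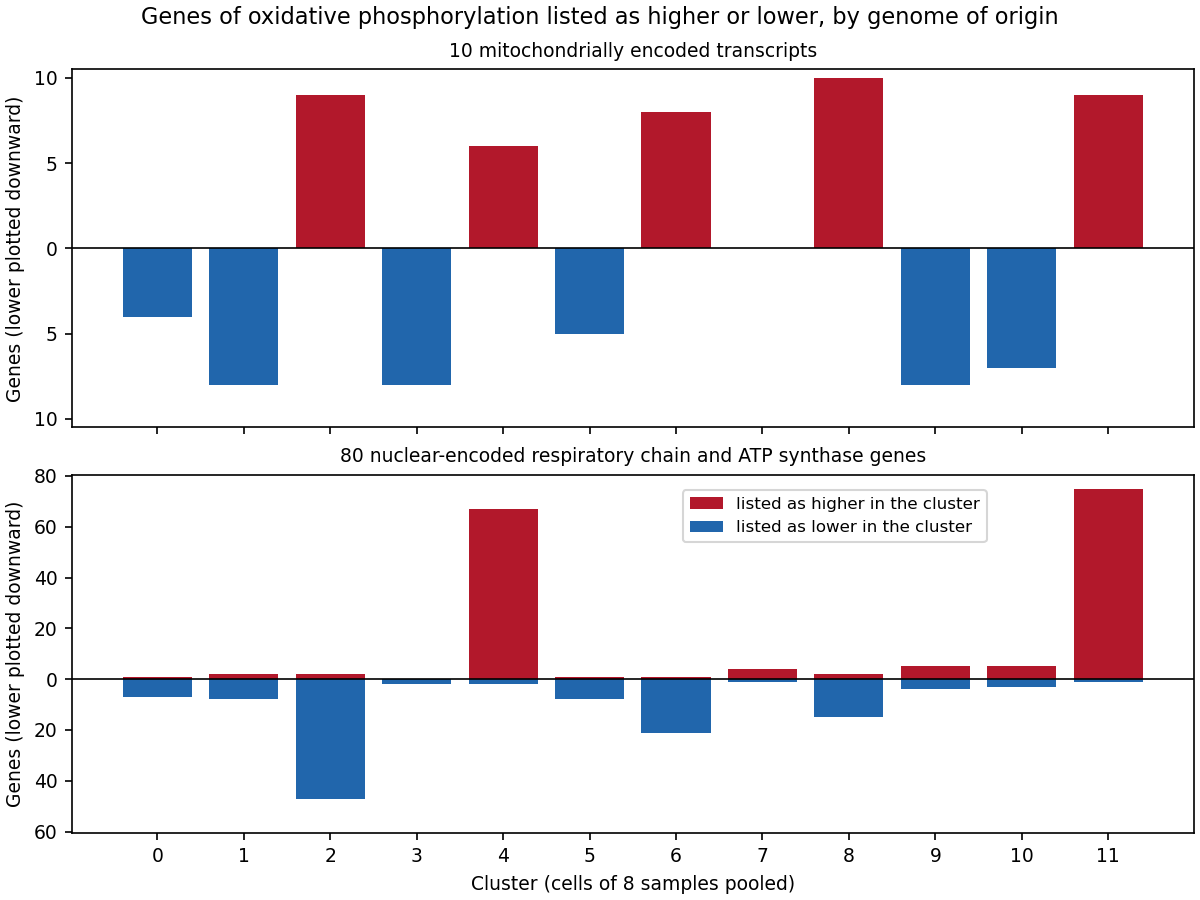
Number of genes listed as higher (red, upward) and lower (blue, downward) in each cluster (horizontal axis) for the 10 mitochondrially encoded transcripts (top) and for 80 nuclear-encoded genes of the respiratory chain and ATP synthase (bottom), from pooled cells of 8 samples. Both sets point up in clusters 4 and 11, while in clusters 2, 6 and 8 the mitochondrial set points up and the nuclear set down, with 47, 21 and 15 genes lower.

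In the clusters with lower members, few nuclear genes were listed at all. They numbered 8, 10, 2, 9, 9 and 8 in clusters 0, 1, 3, 5, 9 and 10. In cluster 3, where mt-Nd2 was lowest, both nuclear genes listed were lower, with a median of −0.32. In clusters 0, 1 and 5 most of them were also lower, with 7 of 8, 8 of 10 and 8 of 9. In clusters 9 and 10 the nuclear genes were mixed, with 5 higher in each and 4 and 3 lower. Ndufa4l2 ran in the members' direction with 1.17, 0.67 and 0.30 in clusters 2, 8 and 6. It did so with −0.70, −1.01, −0.86 and −0.41 in clusters 0, 5, 9 and 10. It was lower in clusters 4 and 11, at −0.28 and −0.50, where the members were higher. It was higher in cluster 1, at 0.28, where the members were lower.

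Both genomes also meet in protein synthesis, since mitochondria translate their messages on ribosomes whose proteins are nuclear. Genes of the mitochondrial ribosome were higher in cluster 11, with 49 of 50 listed and a median of 0.44, and lower in cluster 2, with 10 of 10 listed and a median of −0.39. Cluster 4 had 8 higher and 3 lower, and cluster 8 had 3 lower and 0 higher. In clusters 5 and 9, where the members were lower, 6 of 6 and 5 of 5 listed genes of the mitochondrial ribosome were higher, by medians of 0.29 and 0.31. Only 27.1% and 22.2% of all entries of clusters 5 and 9 were lower, so these few genes went as most entries did. Genes of the cytosolic ribosome gave the opposite grouping to the nuclear respiratory genes. They were higher in clusters 2, 6 and 8, with 55 of 56, 19 of 20 and 45 of 46 listed, and lower in clusters 4 and 11, with 72 of 72 and 39 of 41. The members were higher in all 5 of these clusters. Of all entries, 31.3%, 49.9%, 32.8%, 26.3% and 40.2% were higher in clusters 2, 6, 8, 4 and 11.

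The clusters themselves were read from marker lists chosen by symbol. All 10 adipocyte markers were higher in cluster 11, with a median of 2.15, and in cluster 4, with a median of 1.26. In cluster 8, 8 of 8 listed were higher, with a median of 0.48, and in cluster 6, 3 of 4, with a median of 0.36. All listed were lower in clusters 0, 1, 5, 9 and 10, with 6, 7, 7, 4 and 7 genes. In cluster 3, 5 of 6 were lower, and cluster 7 had 1 higher and 1 lower. In cluster 2, which also had higher members, the 4 adipocyte markers listed were all lower, with a median of −0.47. Fabp4 was the lowest of them, at −0.88, yet 99.6% of cluster 2 cells held it, against 70.1% of other cells. Adipoq had the smallest decrease, at −0.36, with shares of 40.1% and 15.8%. The other cells include clusters 4 and 11, and how far these set the lower values was not tested. Markers of proliferating cells were higher in clusters 5, 6 and 9, by medians of 1.07, 1.22 and 1.45. The members were higher in cluster 6 and lower in clusters 5 and 9, so proliferation markers did not go with a single direction. Markers of preadipocytes were higher in clusters 1, 3 and 7, with 4 of 4, 3 of 3 and 2 of 2 listed. They were lower in clusters 4 and 11, with 6 of 6 in each, and in cluster 6, with 3 of 3. In clusters 2 and 8, 3 of 4 and 4 of 5 listed were lower. Cluster 0 had 2 higher and 1 lower, clusters 5 and 9 had 1 each way, and cluster 10 had 1 higher. Of the thermogenic list, Cox7a1, Ppargc1a and Elovl3 had an entry, and all 3 were higher in cluster 11, by a median of 0.54. Cox7a1, also a gene of the complex IV list, was higher in cluster 4 as well, by 1.21 beside 0.86 in cluster 11. It was the only thermogenic gene listed in cluster 4. It was detected in 19.5% of cells of cluster 4 against 14.2% elsewhere, and in 72.3% of cluster 11 against 13.8%. Ucp1, the uncoupling protein that defines heat-producing fat cells, has no entry in the table, and neither has Cidea. Genes of immune, endothelial and glial cells had 0 entries.

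The genes whose pattern was most like that of the members were found by counting, over the 12 clusters, how often a gene was higher, lower or without an entry as most members were. In cluster 5 the members were split evenly between lower and no entry, and lower was used. Of 3827 genes compared, Scd2, a fatty acid desaturase, had the same status in 12 of 12 clusters. mt-Nd6 and Btg1, an antiproliferative gene, matched in 11, and mt-Atp8 and Dlc1 matched in 10. In clusters 0 and 7 most members had no entry, and a gene without an entry there counted as a match. Scd2 matched cluster 0 in that way, whereas mt-Nd6, Btg1, mt-Atp8 and Dlc1 were lower there, as the 4 listed members were. A shared missing entry is not a shared value, so the order of these genes depends on that rule. Scd2 had log2 fold changes of 0.75 in cluster 11, 0.70 in cluster 2 and 0.68 in cluster 4, and of −0.72 in cluster 5 and −0.61 in cluster 9. Btg1 had 1.28 in cluster 8, 0.86 in cluster 2 and −1.06 in cluster 1. The likeness is over clusters of the same pooled cells and is given as a description.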

How the data were processed

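Single-cell RNA was collected from WT and DKO preadipocytes on day 0 and day 6, 2 samples per group. Per the study's methods and the submitters' processing notes, the authors mapped reads to mm10 with Cell Ranger 6.0.0, equalized depth across samples, removed cells with few genes or over 10% mitochondrial expression, log-normalized each cell to 10000, regressed mitochondrial reads out, removed immune, glial and endothelial cells, and compared each of 12 clusters with all other cells with MAST in Seurat. No removal of doublets is described, and none were looked for here. The deposited table holds, per gene and cluster, the log2 fold change, the detected fraction, that is the fraction of cells holding the gene, in the cluster and in other cells (printed as percents), and p-values with adjusted p-values. The authors' p-values were computed over single cells and were used only to count and select entries. These are columns of the authors' own comparison, and no value per sample was analysed here. The depth and cell number behind each value are unknown, so no interval is given.

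Cluster shares were solved by least squares from the deposited detection fractions of the 10 genes listed in every cluster, and sum to 99.92%. The level relative to all cells is F/(sF + 1 − s), with F the fold and s the share. The share-weighted levels of those 10 genes summed to between 0.9968 and 0.9996 when the deposited values were read as log2. The arithmetic was tested on simulated data built from the same model, without added noise, a pseudocount or missing entries. That test does not cover departures of these data from the model. Calculations used pandas 2.3.3 and numpy 2.4.6 under Python 3.11.15, and figures were drawn with matplotlib 3.10.9. Coordinates and sequences are from GENCODE M21.

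Groups were taken from the sample labels. The members, the gene lists and the rules for naming genes were chosen with earlier results of these data known. Named genes were the members, the other mitochondrial genes, the highest and lowest gene of each list per cluster, and the 5 genes most like the members. A list is given by its counts and median, with no test. A few long nuclear RNAs and Lars2, from lists of the same kind, are given in the closing section.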

Additional observations from a re-analysis of the deposited data

How the results depend on the processing

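No paired analysis was possible because no sample has values of its own in the deposited data. Requiring an absolute log2 fold change of 0.5 left 5, 3, 4, 5 and 3 members in clusters 2, 4, 6, 9 and 10. An adjusted p below 0.05 left 0, 3, 3, 4, 3, 2 and 1 in clusters 0, 1, 2, 3, 4, 5 and 9. Taking the direction from detection reversed the call in 6 clusters: 0 members were lower in clusters 0, 1, 5 and 9, where 4, 8, 5 and 8 were detected in more cells, 2 were lower and 6 higher in cluster 3, and 2 were higher and 4 lower in cluster 4. No other alternative reversed a result. Counts in the other clusters stayed within 1.5 times. Medians without mt-Nd4 and mt-Atp6, or as means, moved by less than the SD over members in all 11 clusters, and so did relative levels with a pseudocount of 1 (chosen mean of 10 per 10000) and with shares from 2687 genes, which moved no share by more than 0.058 points. Leaving complex II and Ndufa4l2 out of the nuclear list, chosen after seeing the data, kept its counts within 1.5 times. Reading the values as natural logs moved the median relative level to 0.592, 0.5996, 1.55, 0.54, 0.539, 1.57, 2.04, 0.587, 0.616 and 2.84 in clusters 0, 1, 2, 3, 5, 6, 8, 9, 10 and 11. Under that reading the share-weighted levels of 10 genes summed to 1.033 to 1.428 and not to 1. The levels solved for cluster 7 under alternatives chosen after seeing the data were 0.79 and 0.799 for mt-Nd2, 1.01 for mt-Nd4 under both, and 0.873 and 0.88 for mt-Nd5.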

Other observations

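Lars2, which encodes the enzyme that charges mitochondrial leucine transfer RNA, moved over a wider range than any member. Matches of Lars2 to mitochondrial ribosomal RNA were not looked for, as the search for nuclear matches covered protein genes only. The log2 fold change of Lars2 was 2.24 in cluster 4 and 1.15 in cluster 10, and −1.14, −1.25 and −1.26 in clusters 0, 5 and 9. Over all entries, clusters 4 and 10 had a median detection of 10.8% and 8.1%, and the part of this in the Lars2 values was not tested. Cells with Lars2 made up 76.1% of cluster 4 and 67.6% of other cells, and 30.6% of cluster 10 and 69.7% of other cells. In cluster 11, where the members were highest, it was lower, at −0.36, and in cluster 6, at −0.28. Its direction was thus the opposite of the members' in clusters 6, 10 and 11. The other 6 genes of its list with an entry, which covers mitochondrial transcription, RNA processing and transfer RNA charging, were all higher in cluster 11, with a median of 0.31, and outside it 1 of them was listed, in cluster 4.

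Neat1, a long nuclear RNA that builds paraspeckles, ran in the members' direction in clusters 2, 4 and 8, at 0.91, 1.33 and 0.97, and in clusters 1, 5, 9 and 10, at −0.96, −1.09, −1.25 and −0.81. In cluster 11 it was lower, at −0.43. Malat1, another abundant nuclear RNA, was listed only in clusters 2, 9 and 11, at 0.35, −1.37 and −1.22, so in cluster 11 both were lower while 9 members were higher. Kcnq1ot1, another long nuclear RNA, was higher there, at 0.55, and its direction was that of the members in each of the 8 clusters that list it, from −0.70 in cluster 1 to 0.93 in cluster 4. Meg3, the remaining RNA of that list with entries, was lower in cluster 11, at −1.48.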
